A study of Mus musculus with 2 samples.

Results

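Among the kept cells of a sort for the boundary cap lineage tracer, 437 of 4403 carried mRNA of both *Prss56*, a boundary cap protease gene, and *Sox10*, a transcription factor gene of neural crest and peripheral glia, without *Sox8* or *Pou4f1*. They were selected by these rules in the counts themselves, in 2 single-cell libraries, and are called Prss56-positive glia here. A barcode was kept with at most 10% of its unique molecular identifiers (UMIs, each marking 1 captured mRNA molecule) on mitochondrial genes, and with 2000 UMIs or more (E11.5) or 1000 or more (E12.5). A kept cell was a member if it had 1 UMI or more of *Prss56* and of *Sox10* and none of *Sox8* or of the sensory neuron gene *Pou4f1*. Of 840 kept cells 98 were members at E11.5, and of 3563 kept cells 339 were at E12.5.

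Both groups of embryos carried *Egr2-Cre* (*Krox20-Cre*; Egr2Cre/+) with *R26-Tomato*, written Egr2,R26mT in the labels. Cre is made where the boundary cap gene *Egr2* is active and switches on Tomato, which the descendants of that cell keep, so a traced cell need not express *Egr2* at the time of dissection. The cells came from the meninges and from the dorsal root ganglia and their nerve roots. After enzymatic dissociation, those with Tomato were collected by flow sorting. No treatment is named, and each stage was represented by the pooled embryos of 1 litter in 1 library. Stage, litter and library therefore cannot be told apart, no test between conditions was possible, and all intervals below are 95% intervals that cover counting error only. Tomato is not among the counted genes, so the label could not be checked with it.

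Boundary caps are clusters of neural crest cells that form where motor axons leave and sensory axons enter the spinal cord. They keep cell bodies and tissues of the central and peripheral nervous systems apart at these points, and they give rise to Schwann cell precursors of the nerve roots, to sensory neurons and glia of the ganglia and to cells of the skin. Egr2 is a zinc finger factor that later drives myelination in Schwann cells, Prss56 is a secreted serine protease, Wif1 binds and blocks Wnt ligands, Hey2 is a transcriptional repressor acting downstream of Notch, Npr3 is a clearance receptor for natriuretic peptides and Ntn5 is a secreted protein of the netrin family.

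The regulatory sequence before the start of *Prss56* is shown with those of *Wif1* and *Hey2*, the markers with a match to the EGR motif, and of *Ephb1*, the gene with the highest value of the smallest ratio over 2 stages and 2 references. Each line gives the 250 bases before a RefSeq start (GRCm38.p6), 5′ to 3′ on the strand of the gene, with capitals at matches to GCGNGGGCG, the sequence that EGR family factors bind, on either strand. *Prss56* and *Ephb1* hold no match.
*Prss56* (chr1:87183064-87183313, plus strand): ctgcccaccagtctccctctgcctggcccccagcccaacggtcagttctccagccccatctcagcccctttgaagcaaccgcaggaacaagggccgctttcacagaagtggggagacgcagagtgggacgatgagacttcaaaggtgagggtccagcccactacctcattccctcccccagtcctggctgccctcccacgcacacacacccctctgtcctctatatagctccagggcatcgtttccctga
*Wif1* (chr10:121033754-121034003, plus strand): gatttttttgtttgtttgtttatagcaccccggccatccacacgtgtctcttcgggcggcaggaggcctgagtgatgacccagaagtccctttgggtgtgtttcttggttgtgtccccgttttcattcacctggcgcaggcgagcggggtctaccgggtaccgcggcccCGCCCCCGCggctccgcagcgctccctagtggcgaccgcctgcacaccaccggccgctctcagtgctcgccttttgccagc
*Hey2* (chr10:30842784-30843033, minus strand): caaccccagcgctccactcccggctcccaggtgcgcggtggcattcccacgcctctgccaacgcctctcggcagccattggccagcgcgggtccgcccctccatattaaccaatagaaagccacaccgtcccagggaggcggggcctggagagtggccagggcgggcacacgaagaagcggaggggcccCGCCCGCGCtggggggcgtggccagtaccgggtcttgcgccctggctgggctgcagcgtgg
*Ephb1* (chr9:102354694-102354943, minus strand): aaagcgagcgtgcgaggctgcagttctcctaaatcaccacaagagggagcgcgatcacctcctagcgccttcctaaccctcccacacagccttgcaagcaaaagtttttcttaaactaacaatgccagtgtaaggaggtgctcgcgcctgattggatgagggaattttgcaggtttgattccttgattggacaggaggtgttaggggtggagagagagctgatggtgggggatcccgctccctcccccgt
Of the 6 genes made up of *Prss56* and the 5 markers outside the rule, 2 held the EGR motif in such a window of at least 1 start, against 5.33% of the 27025 genes in the promoter table. None of these 6 held ATCAAAG, a sequence bound by TCF and LEF factors, which 3.72% of all genes held. Neither motif was found for the 9 matched genes of the 15 named below as the highest. A match describes these letters only, and none was tested for binding.

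The E11.5 library held 10287595 UMIs in 1431 barcodes, and that of E12.5 held 23460243 in 3762. The median UMI count of a member was 13812.5 in the first library and 5698 in the second. Members were set beside the reference, all other *Sox10*-positive cells with no *Prss56* UMI, with 395 cells (median 12087 UMIs) and 1119 cells (median 6409 UMIs) in the order of the stages. Since the reference may hold *Sox8* and *Pou4f1*, which members cannot, a gated reference without either was also used, of 225 and 778 cells. Cells with *Pou4f1* and without *Sox10*, 208 and 1350 neuron-like barcodes with median depths of 11551 and 6469 UMIs, served as the background for genes that neurons should lack. Where a pair of values follows without a stage, E11.5 comes first. The libraries shared 9 barcodes, of which 0 were members in both.

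Of all *Sox10*-positive cells, 18.8% (15.5–22.4) and 21.9% (19.9–24.0) were members, in libraries of unequal depth. With each cell reduced at random to 2000 UMIs, *Prss56* remained in 37.8% and 63.9% of the members that had this depth. The reference may therefore hold cells whose *Prss56* was missed, and how many was not tested. *Sox10*-positive cells with *Prss56* numbered 127 and 429 before the last step of the rule, which took out those with *Sox8* (13 and 61), with *Pou4f1* (20 and 35) or with both (4 and 6 of these). Most members were defined by few molecules. At E11.5, 49 members had 1 *Prss56* UMI, 33 had 2 to 4 and 16 had 5 or more, up to 19. At E12.5 these numbers were 125, 124 and 90, up to 41. *Prss56* was found in 2 of the 208 neuron-like cells of E11.5 (0.962%, 0.117–3.43) and in 27 of the 1350 of E12.5 (2.0%, 1.32–2.90), which gives the background of such calls. The members with the fewest UMIs had 2001 and 1116, and the nearest barcodes left out for depth had 1952 and 963. Doublet scores of 0.2 or more were found in 0 and 3 members.

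The level of *Prss56*, which chose the members, was 194 CPM (the summed UMIs of a gene scaled to 1000000 UMIs of the group; 172–219) at E11.5 and 588 (557–621) at E12.5. *Sox10* stood at 343 CPM (312–375) and 404 (378–431) in members and at 293 (277–308) and 328 (315–341) in the reference.

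The 5 boundary cap markers that the rule did not use were all higher in members than in the reference at both stages. *Egr2* had 41.5 CPM (31.4–53.9) in members and 18.9 (15.2–23.2) in the reference at E11.5, and 60.8 (50.9–72.0) against 18.2 (15.3–21.4) at E12.5, a ratio of 2.20 (1.55–3.11) and 3.35 (2.62–4.27). *Wif1* had 47.5 CPM (36.6–60.6) against 25.3 (20.9–30.2) and then 99.6 (86.8–114) against 32.2 (28.3–36.4), a ratio of 1.88 (1.36–2.57) and 3.10 (2.57–3.73). The intervals of members and reference did not overlap for either gene at either stage. *Ntn5* had 31.9 CPM (23.1–43.0) against 14.4 (11.2–18.3) at E11.5 and 57.6 (47.9–68.5) against 35.9 (31.8–40.4) at E12.5, a ratio of 2.21 (1.47–3.29) and 1.60 (1.29–1.98). *Hey2* had 111 CPM (93.5–129.8) against 62.2 (55.3–69.7) and 143 (128–160.2) against 94.7 (87.9–102), a ratio of 1.78 (1.45–2.17) and 1.51 (1.32–1.73). *Npr3* was the most abundant of these and the least separated, with ratios of 1.39 (1.16–1.67) and 1.14 (1.02–1.27).

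The median log2 ratio of the 5 markers was 0.91 and 0.68, beside 0.02 at both stages over all genes compared. Against the gated reference it was 0.64 and 0.44. There, *Npr3* turned to the other side of 1 at E12.5, with 0.95 (0.849–1.06), and had 1.17 (0.965–1.42) at E11.5, while *Egr2* kept ratios of 1.87 (1.27–2.75) and 3.19 (2.44–4.19). *Wif1*, *Hey2* and *Ntn5* also stayed above 1 with their intervals, at 1.56 (1.10–2.20), 1.38 (1.11–1.71) and 2.15 (1.36–3.42) and then at 2.60 (2.14–3.18), 1.29 (1.12–1.49) and 1.35 (1.08–1.69). *Egr2*, *Wif1*, *Hey2* and *Ntn5* thus stayed higher in members with both references, while *Npr3* did not separate members from the gated glia. These markers were chosen with earlier results of these data known. Their levels therefore describe the members and do not test whether they are boundary cap cells. A second list of 5 genes linked to boundary caps, led by *Sema6a*, had 0 of 2 compared genes past 2-fold at E11.5, then 0 of 4 at E12.5, beside 1.2% of all genes higher and 2.83% lower and then 1.99% and 3.49%, with median log2 ratios of -0.09 and 0.38. With the gate 1 of 4 was higher at E12.5, *Sema3g*, on 22 UMIs in members and named after its values were seen, beside 1.65% of all genes. With the gated reference, *Ntn5* was past 2-fold at E11.5, and *Egr2* and *Wif1* at E12.5, beside 0.824% and 1.65% of all genes higher.

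**Figure D1:**
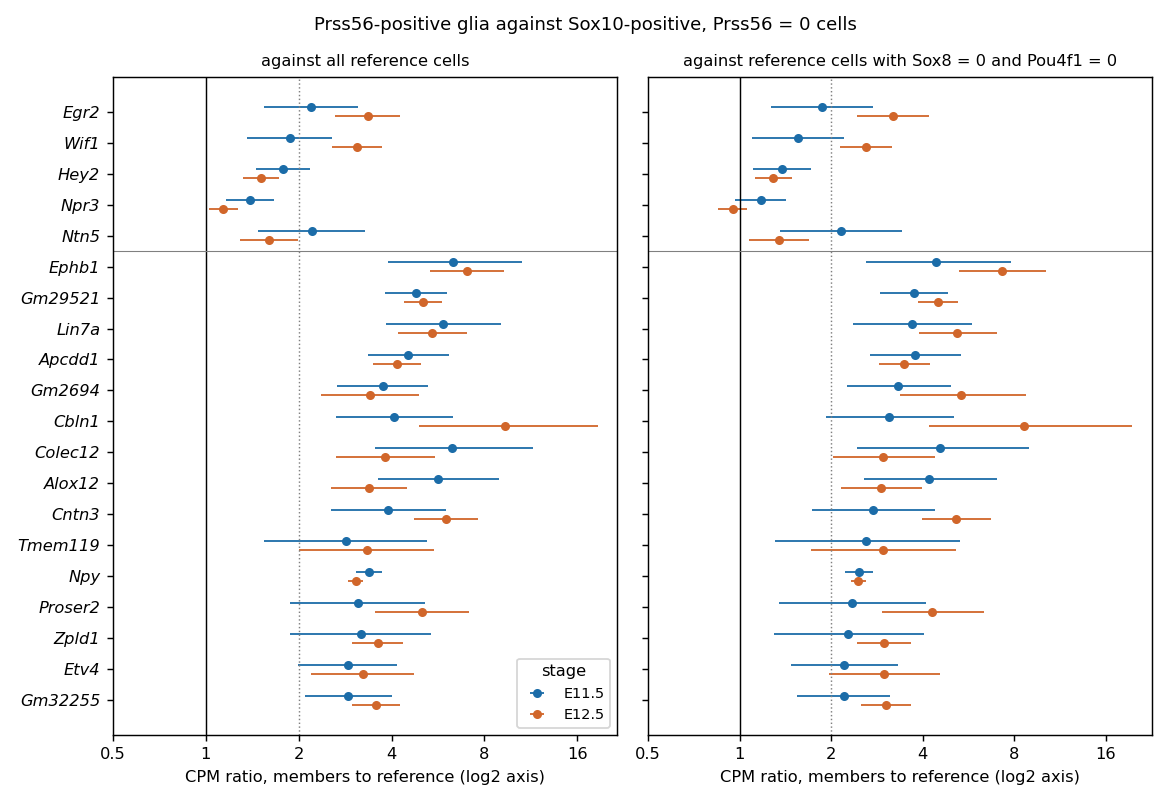
CPM ratio of Prss56-positive members to *Sox10*-positive, *Prss56* = 0 cells (log2 axis) for the 5 markers outside the rule (upper rows) and the 15 highest genes (lower rows), against all reference cells on the left and the gated reference on the right. Points are ratios, bars 95% intervals of counting error, the solid line equal levels and the dotted line a ratio of 2. The markers lie between 1.14 and 3.35 on the left and the 15 genes between 2.85 and 9.31.

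The markers were also counted cell by cell. Whether they occurred together more often than their single shares would give was not tested. With all UMIs of a cell, 90 of 98 members (91.8%, 84.5–96.4) and 312 of 339 (92.0%, 88.6–94.7) had a UMI of 1 or more of the 5 markers, against 75.2% (70.6–79.4) and 76.2% (73.6–78.7) of the reference. UMIs of 3 or more markers were found in 51.0% (40.7–61.3) and 36.0% (30.9–41.3) of members, against 21.0% (17.1–25.4) and 15.9% (13.8–18.2) of the reference and 0.962% (0.117–3.43) and 0.667% (0.305–1.26) of neuron-like cells. All 5 occurred together in 3 and 9 members. With every cell thinned to 2000 UMIs, which left out 7 members and 34 reference cells at E12.5 and none at E11.5, 2 or more markers remained in 13.3% (7.26–21.6) and 23.8% (19.3–28.7) of members and in 7.09% (4.76–10.1) and 12.8% (10.9–14.9) of the reference. At that depth 3 or more were held by 0 of 98 members at E11.5, where 3 counts of the total would be 3.06% and the exact upper limit is 3.69%, and by 4 of 395 reference cells (1.01%, 0.277–2.57). In the E12.5 library they were held by 5.42% (3.24–8.43) and 2.30% (1.497–3.38). *Egr2*, the gene of the Cre driver, was seen in 36 of 98 members (36.7%, 27.2–47.1) and in 100 of 339 (29.5%, 24.7–34.7), or, thinned, in 5.10% (1.68–11.51) and 10.5% (7.45–14.4). The thinned shares of the reference were 4.30% (2.53–6.80) and 3.32% (2.33–4.56), so at E11.5 the *Egr2* shares of members and reference could not be distinguished at this depth.

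**Figure D2:**
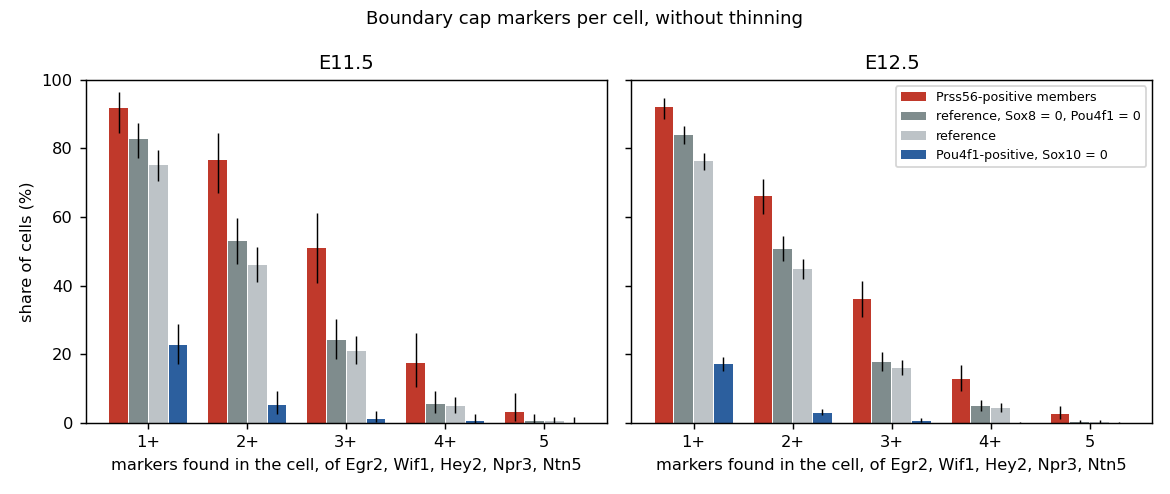
Share of cells (%) in which at least 1, 2, 3, 4 or all 5 of *Egr2*, *Wif1*, *Hey2*, *Npr3* and *Ntn5* had a UMI, without thinning, at E11.5 (left) and E12.5 (right). Bars are members, gated reference, reference and neuron-like cells, and lines are exact binomial intervals. Members are above the other classes at every number of markers, with 51.0% and 36.0% of cells at 3 or more.

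Beyond these markers, genes were compared where at least 10 UMIs were expected in the members, and were called when the CPM ratio was at least 2, or at most 0.5, with its interval clear of 1. At E11.5, 111 of 9230 genes were 2-fold higher (1.2%) and 261 were 2-fold lower (2.83%) in members than in the reference. At E12.5, 217 of 10900 were higher (1.99%) and 380 lower (3.49%). Against the gated reference 76 genes were higher (0.824%) and 118 lower (1.28%) at E11.5, and 178 higher (1.65%) and 149 lower (1.38%) at E12.5. The gated comparisons covered 9224 and 10788 genes. Of the genes compared at both stages, 51 were 2-fold higher (0.555%) and 150 were 2-fold lower (1.63%) at both. Among the 9190 genes compared at both stages, 109 were higher at E11.5 and 128 at E12.5, of which the 51 were 46.8% and 39.8%.

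The 15 genes highest in members, by the smallest ratio over 2 stages and 2 references, were led by *Ephb1*, a receptor tyrosine kinase for ephrin-B ligands (ENSMUSG00000032537; GRCm39 chromosome 9, 101799327 to 102231898). It had 36.4 CPM (26.9–48.1) in members and 5.73 (3.78–8.34) in the reference at E11.5, and 72.6 (61.8–84.8) and 10.4 (8.23–12.9) at E12.5. The ratios were 6.34 (3.89–10.6) and 7.0 (5.32–9.27), and with the gated reference 4.43 (2.61–7.78) and 7.26 (5.27–10.2). *Ephb1* was found in 25.5% and 27.1% of members, 5.57% and 5.09% of reference cells and 0.962% and 1.48% of the neuron class, unthinned. The lncRNA *Gm29521* (ENSMUSG00000100807) lies 59397 bases from it on the same strand. It was more abundant in UMIs, with 134 CPM (115–155) against 28.0 (23.4–33.2) and 226 (206–246) against 44.6 (40.0–49.6), and was found in 58.2% and 62.2% of members.

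A second neighbouring pair joins the marker *Egr2* (ENSMUSG00000037868; GRCm39 chromosome 10, 67371305 to 67378018) to the lncRNA *Gm32255* (ENSMUSG00000112120; 67332189 to 67371219), which runs the other way on the opposite strand, with 85 bases between them. *Gm32255* had 54.2 CPM (42.4–68.1) in members and 18.7 (15.0–23.0) in the reference at E11.5 and 116 (102–131) and 32.6 (28.7–36.8) at E12.5, a ratio of 2.90 (2.10–4.0) and 3.55 (2.97–4.24). *Gm32255* was detected in 44.9% and 44.8% of members, beside 36.7% and 29.5% for *Egr2*, and in 0.962% and 0.593% of cells of the neuron class. These neighbour relations were looked up after the values were seen.

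By amount, the leading gene of the 15 was *Npy*, which encodes neuropeptide Y, a peptide best known from neurons. Members had 609.8 CPM (569–653) and then 1103 (1059.6–1148), and the reference 181 (169–194) and 361 (347–374), ratios of 3.37 (3.06–3.71) and 3.06 (2.90–3.23). Neuron-like cells had only 20.7 CPM (15.3–27.4) and 41.4 (37.3–45.8). Thinned to 2000 UMIs, *Npy* was still found in 54.1% (43.7–64.2) and 64.5% (59.0–69.6) of members, against 25.8% (21.6–30.4) and 35.8% (32.9–38.7) of the reference.

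*Lin7a*, a polarity and synaptic scaffold gene, had 46.0 CPM (35.3–59.0) in members and 7.85 (5.53–10.8) in the reference at E11.5, and 70.3 (59.7–82.4) and 13.0 (10.6–15.8) at E12.5. *Cntn3*, a contactin adhesion molecule, had 36.4 (26.9–48.1) and 9.34 (6.79–12.5), then 88.6 (76.6–102) and 14.8 (12.2–17.8), held by 14 and 62 members. The secreted synaptic organizer gene *Cbln1* was carried by 25 and 19 members, at 36.4 (26.9–48.1) and 16.9 CPM (11.9–23.3), against 8.92 (6.43–12.1) and 1.82 (0.993–3.05) in the reference. Its ratio of 9.31 (4.91–18.6) at E12.5 was the highest among the 15 genes, and rests on 37 UMIs. The scavenger receptor gene *Colec12* had ratios of 6.29 (3.55–11.47) and 3.81 (2.64–5.51), and *Zpld1*, a gene of the zona pellucida domain family, 3.18 (1.87–5.37) and 3.60 (2.98–4.36). *Apcdd1*, a membrane inhibitor of Wnt signalling, had 4.53 (3.36–6.13) and 4.17 (3.48–4.99).

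The remaining genes of the 15 were the lipoxygenase gene *Alox12*, with ratios of 5.65 (3.62–8.94) and 3.38 (2.54–4.50), and the ETS factor gene *Etv4*, a common target of fibroblast growth factor signalling, with 2.89 (2.0–4.16) and 3.23 (2.20–4.73). *Proser2* had 3.11 (1.87–5.15) and 5.0 (3.52–7.15), *Tmem119* 2.85 (1.55–5.19) and 3.32 (2.0–5.50), and the predicted gene *Gm2694* 3.74 (2.67–5.26) and 3.41 (2.37–4.91). In neuron-like cells *Gm2694* was at 17.8 and 21.4 CPM, above its reference level of 14.9 and 8.30, and *Tmem119* at 8.46 CPM was above its 5.73 at E11.5. *Lin7a* did so at E12.5, with 16.9 CPM.

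**Figure D3:**
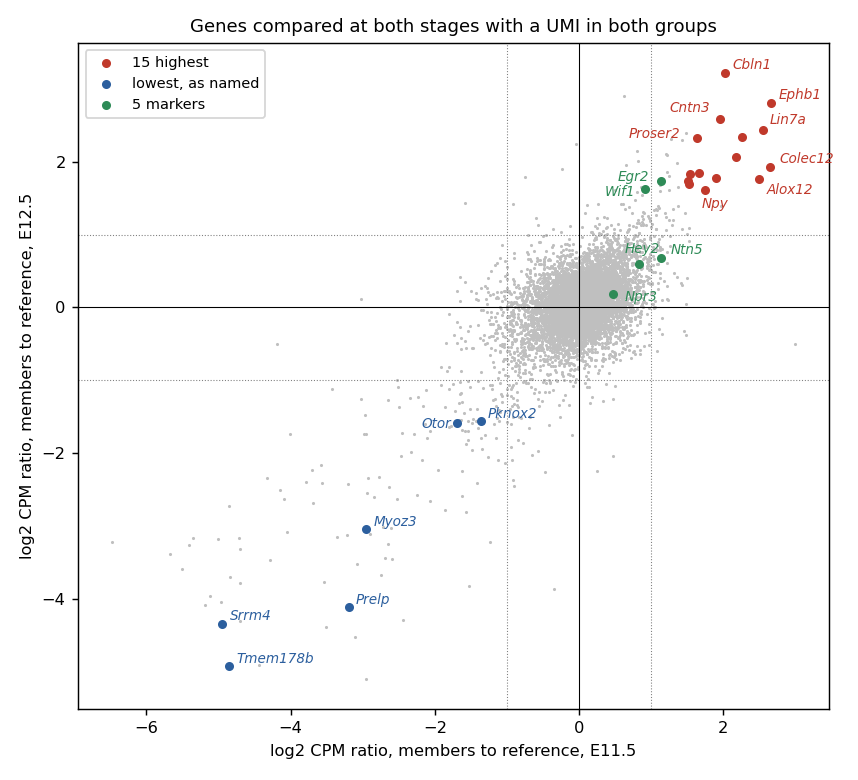
Log2 CPM ratio of members to reference at E11.5 (horizontal) and E12.5 (vertical), 1 point for each gene compared at both stages with a UMI in both groups. Red marks the 15 highest genes, blue those of the lowest genes named below that had a UMI in members at both stages, green the 5 markers, and dotted lines a 2-fold ratio. The 15 genes lie above 2-fold at both stages and *Npr3* lies nearest to the origin of the 5 markers.

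Of the 10 genes lowest in members, 7 stood higher in neuron-like cells than in the reference at both stages, and the rule itself asks for no *Pou4f1*. *Srrm4*, a splicing regulator of neurons, was 30.8-fold and 20.2-fold lower than the reference, or 5.66-fold and 2.77-fold lower than the gated reference. *Tmem178b* had 1 and 3 UMIs in members and *Prelp*, a matrix proteoglycan gene, 2 and 1. *Shox2*, a homeobox gene of sensory neurons, had 0 UMIs in members at E11.5, at least 6.1-fold lower than the reference when 3 UMIs over all members are taken as the limit, and 1 UMI at E12.5. *Btbd17* had 0 and 5 UMIs, and *Cck*, the cholecystokinin gene, 2 and 0. The *Cck* UMIs of the reference came from few cells, 106 in 13 of 395 and 75 in 17 of 1119, and at E11.5 it was found in 2.04% of members and 1.78% of the gated reference. With the gated reference, the intervals of *Tmem178b* and *Prelp* reached 1 at both stages, and so did that of *Shox2* at E11.5.

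*Pknox2* and *Otor* were the lowest genes that neuron-like cells held below the reference level at both stages. *Pknox2* is a TALE homeobox gene. It had 9.64 CPM (5.14–16.5) in members, 24.8 (20.5–29.8) in the reference and 4.65 (2.32–8.33) in the neuron class at E11.5, and 5.94 (3.16–10.2), 17.5 (14.7–20.7) and 5.02 (3.68–6.70) at E12.5. Members were 2.58-fold and 2.95-fold lower than the reference and 2.92-fold and 3.10-fold lower than the gated reference. *Otor*, which encodes a small secreted protein, was 3.22-fold and 3.0-fold lower. With the gate it was 2.50-fold lower at E11.5, where the interval reached 1, and 3.01-fold lower at E12.5. *Myoz3* was 7.73-fold and 8.24-fold lower, with 49.5 and 111 CPM in neuron-like cells.

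Of the whole sensory neuron list, 13 of 14 genes compared were 2-fold lower in members at E11.5, then 14 of 15 at E12.5, with summed levels of 252 and 262 CPM against 1379 and 1729.6 in the reference. Over all genes 2.83% and 3.49% were lower. Against the gated reference these counts were 4 of 9, among them *Isl1*, *Neurog1* and *Stmn2*, and 2 of 13, among them *Neurog1*, beside 1.28% and 1.38% of all genes. *Neurog1*, a proneural factor, had 12.6 and 4.11 CPM in members and 79.2 and 39.0 in the reference. *Isl1*, a LIM homeobox gene of sensory neurons, had 2.97 (0.809–7.60) and 16.4 CPM (11.52–22.8) against 126 and 158. *Tubb3*, the neuronal tubulin, could not be told from the gated reference within counting error, with ratios of 0.992 (0.786–1.25) and 1.08 (0.911–1.27).

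Markers of other cell types were sparse in members. All 8 myeloid markers, all 7 markers of central nervous system progenitors and all 6 of motor neurons were at 0 UMIs at E11.5, and those of E12.5 summed to 4.57, 1.83 and 2.74 CPM. Melanoblast markers summed to 24.5 and 28.3 CPM, against 14.4 and 23.2 in the reference. *Kit* was the most abundant of them, and *Tyrp1* and *Mlana* were at 0 at both stages. Endothelial markers summed to 16.3 and 29.2 CPM, against 22.1 and 23.7 in the reference, led by *Egfl7*, with *Cdh5* and *Cldn5* at 0 at both stages. Autonomic neuron markers summed to 10.4 and 24.2 CPM, against 2.76 and 13.6 in the reference. Of the members' sums *Gata2*, a zinc finger factor, held 10.4 and 21.9, while *Phox2a*, *Hand2* and *Dbh* were at 0 at both stages. No gene of this list reached the expected count for comparison at E11.5. *Gata2* passed 2-fold at E12.5, at 2.06 (1.41–2.98), but not beside the gated reference, at 1.77 (1.19–2.63). Mesenchymal and meningeal markers were the exception to this sparseness, at 234 and 581 CPM against 149.9 and 401 in the reference. Their most abundant gene was *Col1a2*, a type I collagen, with ratios of 1.52 (1.28–1.80) and 1.70 (1.56–1.86), while *Pdgfra* and 5 further markers of this list were at 0 at E11.5, and *Dcn* and *Lum* were 2-fold lower at E12.5. The part of such RNA in the matrix genes below was not tested. Pericyte markers summed to 46.0 and 49.8 CPM against 48.2 and 71.1 in the reference, led by *Notch3*, and erythroid markers reached at most 25.2 CPM.

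Genes of Schwann cell precursors, the glia that travel along nerves, were also carried by the reference. Of 12 compared, 1 was 2-fold higher and 1 lower at each stage, beside 1.2% and 2.83% of all genes at E11.5 and 1.99% and 3.49% a day later, and the median log2 ratios were 0.09 and 0.36. Beside the gated reference the medians were -0.11 and 0.15, with 7 of 12 genes below 1 and none past 2-fold at E11.5. With that reference, 0.824% of all genes were higher and 1.28% lower at E11.5. The higher one was *Dhh*, the desert hedgehog ligand gene, with 21.5 CPM (14.4–30.9) against 9.98 (7.33–13.3) and 57.6 (47.9–68.5) against 22.3 (19.1–25.9). Its gated ratios were 1.72 (1.004–2.94) and 2.37 (1.83–3.06). The lower one was *Tfap2a*, an early neural crest factor, with 47.5 CPM (36.6–60.6) against 95.3 (86.7–105) and 44.3 (35.9–54.1) against 96.6 (89.8–104). Beside the gated reference its ratios were 0.517 (0.386–0.684) and 0.473 (0.376–0.589). Of the Schwann and myelin list, 0 of 9 genes at E11.5, then 1 of 11 at E12.5 passed 2-fold against the reference. Over all genes, 1.2% were higher and 2.83% lower at E11.5, or 1.99% and 3.49% at E12.5. The 1 gene was *Gjc3*, a gap junction gene, at 2.54 times the reference. *Gjc3*, and below *Sox9*, *Hes5*, *Lfng*, *Fbln2* and *Lama2*, were chosen after their values were seen. *Fabp7*, the brain lipid-binding protein of immature glia, had ratios of 1.16 (1.11–1.22) and 0.751 (0.729–0.773).

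The 3 compared genes of the neuregulin and ErbB list, through which axons sustain Schwann cell precursors, were all above 1 at both stages, with none past 2-fold. *Erbb3*, a receptor of that pathway, had ratios of 1.53 (1.28–1.84) and 1.32 (1.14–1.51). Among the neural crest factors, *Tfap2a* was the one past 2-fold lower at both stages, and *Sox9* was 2.19 times the reference at E12.5. *Sema6a*, a semaphorin linked to boundary caps, was at 149.9 CPM in members and 154 in the reference at E11.5, and at 246 and 215 at E12.5, a ratio of 0.975 (0.830–1.14) and 1.14 (1.04–1.26).

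Medians of the Wnt list were above 0 and those of the Notch list below. In the Wnt list, 1 of 21 genes compared was 2-fold higher at E11.5, then 6 of 24 at E12.5, none was lower, and the medians were 0.16 and 0.29 on the log2 scale. Over all genes, 1.2% and 1.99% were higher. Beside the gated reference both medians were 0.13, with 2 of 22 genes higher and 1 lower at E11.5 and 6 of 24 higher at E12.5. With that reference, 0.824% and 1.65% of all genes were higher, and 1.28% were lower at E11.5. *Lef1*, a nuclear effector of Wnt signalling, had 248 CPM (222–276) against 141 (131–152) at E11.5 and 208 (189–228) against 90.8 (84.2–97.8) at E12.5. *Tcf7*, a factor of the same family, was 2-fold higher at both stages, with 2.12 (1.37–3.24) and 2.52 (1.70–3.71), but had 1.80 (1.12–2.90) beside the gated reference at E11.5. *Wif1*, described above, and, chosen after the values were seen, *Notum*, *Wnt5a* and *Wnt5b* complete the 6. *Notum*, a secreted Wnt deacylase, had 36 UMIs in members at E12.5 and a ratio of 7.46, and *Wnt5a*, a ligand, 63 UMIs and a ratio of 2.92.

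In the Notch list, 3 of 15 genes were 2-fold lower at E11.5 (*Dll1*, *Hes6*, *Mfng*) and 5 of 16 at E12.5 (these with *Hes5* and *Lfng*), with medians of -0.24 and -0.42, beside 2.83% and 3.49% of all genes lower. With the gated reference 1 of 14 was lower at E11.5 (*Mfng*), and 4 of 15 at E12.5 (*Mfng*, *Hes5*, *Lfng* and *Hey1*, the last named after its values were seen). Over all genes, 1.28% and 1.38% were lower with the gate. *Dll1*, a ligand of nascent neurons, had 4 and 2 UMIs in members and 90 and 76 in the reference, and was not called with the gate. *Hes6*, which neuronal precursors carry, had 42.3 CPM (32.0–54.8) and 25.1 (18.9–32.7) in members, 257 and 205 in the reference and 1336 and 863 in neuron-like cells. With the gated reference, *Hes6* had ratios of 0.820 (0.590–1.13) and 0.504 (0.370–0.677) and passed 2-fold at neither stage, while *Mfng*, a glycosyltransferase that modifies Notch receptors, did at both. *Heyl*, a Notch target, had ratios of 0.904 (0.771–1.06) and 0.934 (0.809–1.07), both intervals holding 1, beside the higher level of *Hey2*.

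**Figure D4:**
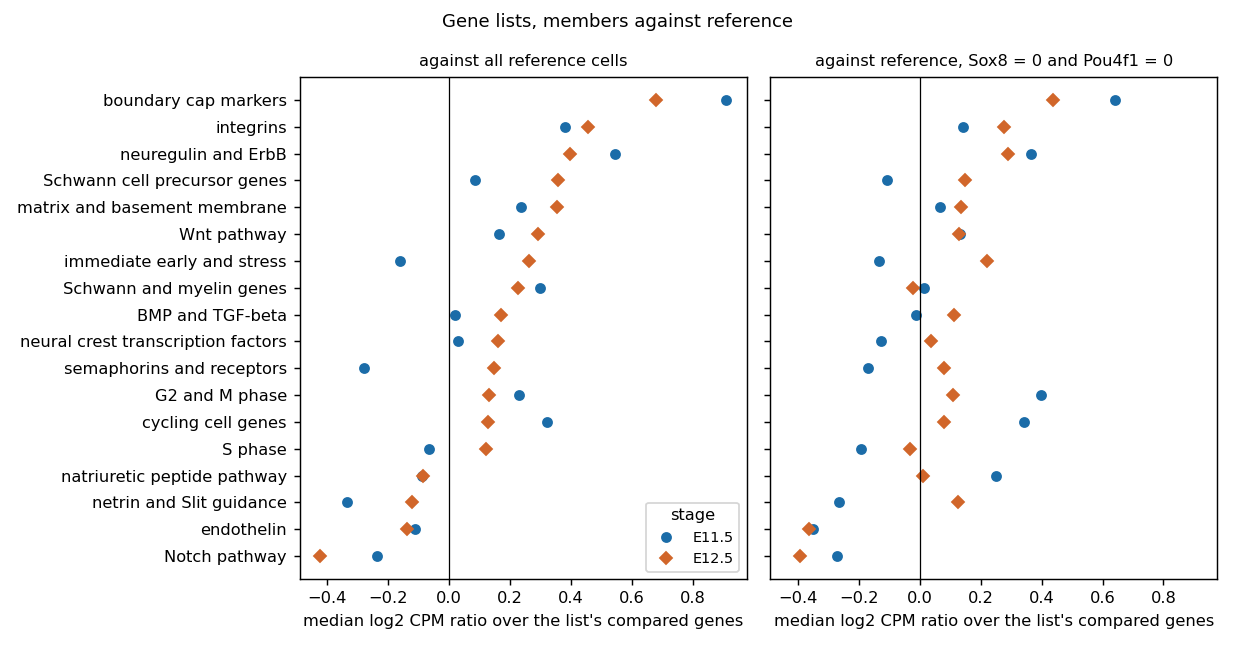
Median log2 CPM ratio of members to reference over the compared genes of each gene group with at least 3 of them (cell type lists left off), against all reference cells (left) and the gated reference (right). Circles are E11.5 and diamonds E12.5. The markers lie farthest right and the Notch list farthest left at E12.5.

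In the netrin and Slit guidance list, 3 of 11 genes compared were past 2-fold at each stage, beside 1.2% of all genes higher and 2.83% lower at E11.5, or 1.99% and 3.49% at E12.5. They were *Ntn5* higher with *Slit2* and *Robo2* lower at E11.5, and *Dcc* higher with *Unc5d* and *Robo2* lower at E12.5, with medians of -0.34 and -0.12 on the log2 scale. With the gate the medians were -0.27 and 0.13, so the direction at E12.5 turned. *Slit2*, a ligand, and *Unc5d*, a netrin receptor, were named after their values were seen, and both were also 2-fold lower beside the gated reference at those stages. *Dcc*, another netrin receptor gene, was the most abundant of the list, with 396 CPM (363–431) in members against 259 (245–274) at E11.5 and 231 (211–252) against 86.4 (80.0–93.2) at E12.5, a ratio of 1.53 (1.38–1.69) and 2.68 (2.38–3.01). *Robo2*, a Slit receptor, was 2-fold lower at both stages, with 0.326 (0.127–0.706) and 0.212 (0.114–0.362), though not with the gated reference, at 0.604 (0.218–1.46) and 0.639 (0.327–1.17). *Nrp1*, a semaphorin and VEGF receptor, was 2-fold lower with either reference, at 0.432 (0.328–0.560) and 0.480 (0.393–0.581) and, gated, 0.494 (0.370–0.651) and 0.480 (0.391–0.586). In the matrix and basement membrane list 16 of 17 genes at E11.5, then 18 of 20 at E12.5 lay above 1 (12 of 17 and 13 of 20 with the gate), with medians of 0.24 and 0.36 and 1 gene past 2-fold at each stage, *Fbln2* upward at E11.5, which was not called with the gate, and *Lama2* downward at E12.5. *Postn*, the periostin gene, had 358 CPM (326–391) against 194 (181–207) and 367 (342–394) against 208 (198–218). With the gated reference the matrix medians were 0.07 and 0.13, beside 0.02 at both stages over all genes compared. The share of all genes above 1 was not taken. The matrix genes past 2-fold stand beside the shares of all genes given above for the guidance list. Integrin genes had no call at either stage. In the natriuretic peptide list, *Npr2*, the receptor for C-type peptide, was 2-fold lower at both stages, with 3 and 16 UMIs in members, and not with the gated reference. *Corin*, a protease gene that processes these peptides and was named after its values were seen, was 2-fold higher at E12.5 with either reference, at 2.83 and, gated, 2.20 times on 33 UMIs in members.

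None of 18 S phase and 16 G2 and M phase genes passed 2-fold at either stage, beside 1.2% of all genes higher and 2.83% lower at E11.5, or 1.99% and 3.49% at E12.5. At smaller ratios, 14 of 16 and 13 of 16 G2 and M phase genes lay above 1, with median log2 ratios of 0.23 and 0.13 (gated 0.40 and 0.11). Of the S phase genes 6 of 18 and 14 of 18 did, with -0.07 and 0.12 (gated -0.19 and -0.03). The share of all genes above 1 was not taken here either. A cell was counted as cycling with UMIs of 2 or more of *Mki67*, *Top2a*, *Cdk1*, *Ccnb1*, *Birc5* and *Cenpf* after thinning to 2000 UMIs. These 6 genes summed to 1506 and 1173 CPM in members and 1142 and 1061 in the reference. Cycling cells made up 54.1% (43.7–64.2) of members and 44.1% (39.1–49.1) of the reference at E11.5. At E12.5 they made up 34.9% (29.8–40.3) and 35.8% (32.9–38.7), with overlapping intervals at both stages. Neuron-like cells gave 17.3% (12.4–23.1) and 8.15% (6.72–9.78). Without thinning, members gave 88.8% and 49.9%, in libraries of unequal depth.

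Members were also divided by their number of *Prss56* UMIs into tiers of 1, 2 to 4, and 5 or more. The 15 highest genes were chosen in pools that hold all tiers, so their levels by tier are not independent of that choice. Of these 15 genes, 9 at E11.5 and 10 at E12.5 rose in order over the 3 tiers, and the others did not. The share of all genes that rose in this way was not taken, so whether these counts exceed it was not tested. *Lin7a* had 32.8 (20.3–50.1), 42.8 (26.1–66.1) and 87.5 CPM (54.2–134) over the 3 tiers at E11.5 and 33.9 (22.4–49.4), 58.3 (42.7–77.8) and 134 (106–167) at E12.5. *Cbln1* lay near the reference in members with 1 UMI at E11.5, at 9.37 CPM (3.44–20.4), and reached 87.5 (54.2–134) in the top tier. At E12.5 *Cbln1* did not rise in order. Members with 1 UMI had 11.3 CPM (5.17–21.5), above the reference at 1.82 (0.993–3.05). Those with 2 to 4 UMIs were lower than those with 1 UMI, with overlapping intervals, and the top tier had 41.3 CPM (26.76–61.03).

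*Npr3* had 120.2 (94.9–150.3), 152 (119–192) and 104 CPM (67.4–154) at E11.5 and 212 (182–247), 214 (183–249) and 179 (147–216) at E12.5. *Egr2* had 40.6 (26.5–59.5), 29.9 (16.4–50.2) and 66.7 CPM (38.1–108), then 41.5 (28.5–58.2), 67.2 (50.3–87.9) and 77.7 (57.1–103), with overlapping intervals at neighbouring tiers. Median depth was close between tiers, at 13144, 14484 and 14297 UMIs and at 5833, 5663.5 and 5634.5. The tiers use the gene that chose the members and hold as few as 16 cells, so their order is a description.

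**Figure D5:**
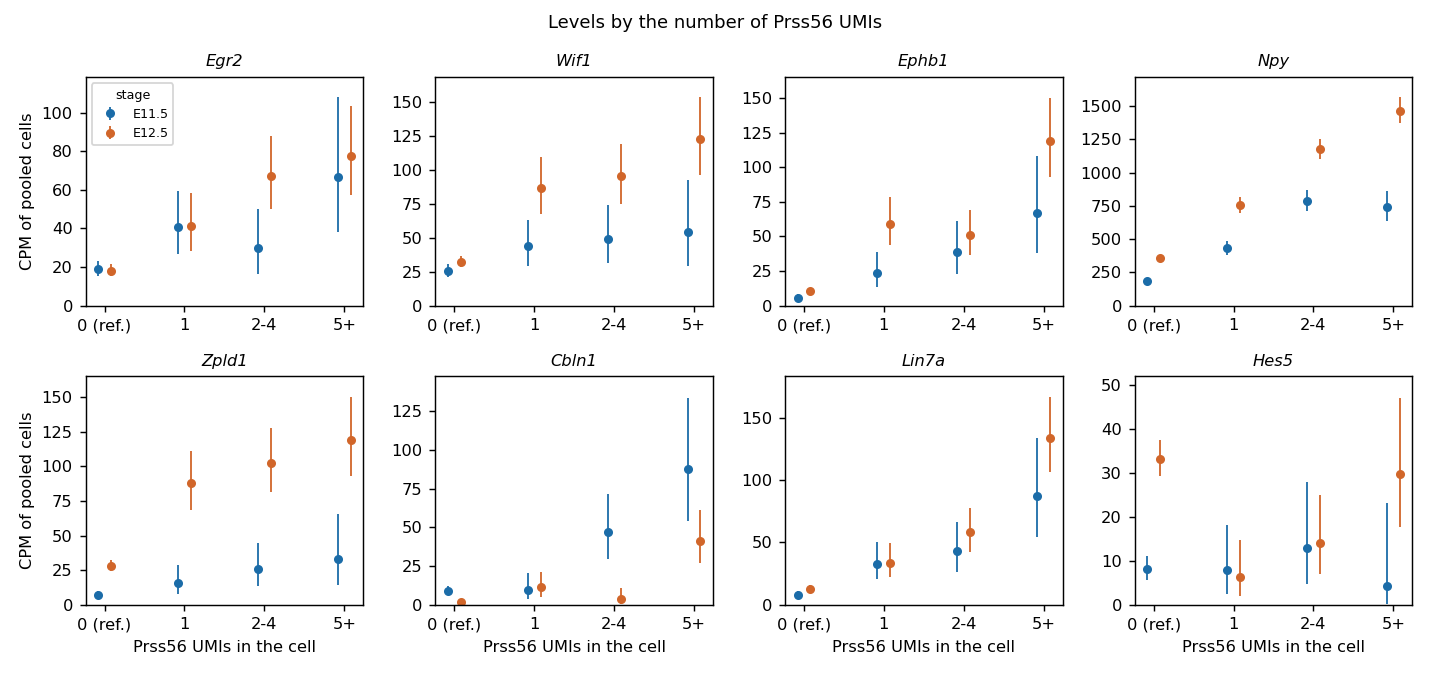
CPM of 8 genes in cells grouped by their number of *Prss56* UMIs (0 in the reference, then 1, 2 to 4, and 5 or more in members), at E11.5 (blue) and E12.5 (orange). Points are pooled levels and bars exact Poisson intervals. *Npy* in members ranges from 431 to 787 CPM at E11.5 and from 753 to 1467 at E12.5, above the reference points at 181 and 361.

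*Egr2* was also used to ask whether these genes go with another boundary cap gene where *Prss56* was not found. Among reference cells, those with *Egr2* (66 and 109) were set beside those without (329 and 1010). Of the 15 highest genes, all 15 at E11.5 and 12 at E12.5 were higher in the *Egr2*-positive cells, 10 at each stage with the interval above 1. No share of all genes was taken for this comparison, so whether these counts exceed it was not tested. *Npy* had 309 against 150.5 CPM and 471 against 347, ratios of 2.05 (1.77–2.37) and 1.36 (1.21–1.51). *Gm32255*, which borders *Egr2*, had ratios of 1.95 (1.20–3.10) and 3.84 (2.90–5.04). *Proser2*, *Colec12* and *Gm2694* were the 3 below 1 at E12.5, none with its interval below 1. *Wif1* had 1.41 (0.899–2.15) and 1.06 (0.691–1.58), with both intervals holding 1. Median depths were 13563.5 and 11885 UMIs in the first library, and 6703 and 6375 in the second.

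Between the stages, 641 of 9526 genes were 2-fold higher (6.73%) and 138 2-fold lower (1.45%) in members at E12.5 than at E11.5, beside 941 (7.59%) and 192 (1.55%) of 12391 in the reference. Of the members' genes compared in both groups, 279 of 640 higher and 54 of 138 lower ones also passed 2-fold in the reference. *H2ac24*, a histone gene, was 30.3-fold lower (24.6–37.8) in members at E12.5 and 30.8-fold lower (27.4–34.6) in the reference, and the ribosomal protein genes *Rps27*, *Rpl9* and *Rpl10* were 22.4-fold, 12.1-fold and 11.4-fold lower in members and 24.9-fold, 12.96-fold and 12.04-fold lower in the reference. *Xist*, the RNA of the inactive X chromosome, had 343 and 0 UMIs in members, at least 186-fold lower with 3 UMIs as the limit, and 1430 and 1 in the reference. The Y-linked *Ddx3y* stood at 23.7 and 53.9 CPM in members and 25.3 and 50.3 in the reference, and *Eif2s3y* at 16.3 and 29.2 and at 19.7 and 37.6. Both were named after their values were seen. The pools thus differed in these sex-linked genes, and the sex of the embryos cannot be told apart from stage. *Mylip*, a ubiquitin ligase gene, was higher at E12.5 by 30.9-fold (13.1–96.0) in members and 9.94-fold (7.35–13.8) in the reference.

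*Meis2*, a homeobox gene, was the one of the 12 named stage genes whose intervals in members and reference did not overlap. It had 28 and 4 UMIs in members, 11.4-fold lower (3.98–44.6), against 2.0-fold lower (1.43–2.81) in the reference. The immediate early gene *Fosb* had 1 and 54 UMIs in members, a ratio of 33.2 (5.72–1337), against 5.02 (2.87–9.47). Such genes respond to tissue dissociation in general, and its part here was not tested. *Jun*, another of that class, stood at 425 and 899 CPM in members and 355 and 542 in the reference. Among the markers, *Wif1* was 2.10 times higher (1.58–2.82) at E12.5 in members and 1.27 times (1.02–1.60) in the reference, and *Egr2* 1.46 (1.06–2.04) and 0.961 (0.732–1.27). The other markers had lower stage ratios in members than in the reference. *Hey2* had 1.30 (1.06–1.59) and 1.52 (1.33–1.75), *Npr3* 1.59 (1.33–1.90) and 1.94 (1.74–2.17), and *Ntn5* 1.80 (1.27–2.61) and 2.49 (1.90–3.30). *Zpld1* was 4.58 times higher (3.12–6.94) in members and 4.04 (2.79–6.01) in the reference, while *Cbln1*, *Etv4* and *Gm2694* were lower in both with intervals clear of 1.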

How the data were processed

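The authors deposited counts, whole numbers of UMIs per gene and cell barcode for 33207 genes, made with Cell Ranger (7.0 in the submitters' processing notes, 7.0.1 in the matrix headers) on mm39, not normalized. The E11.5 and E12.5 libraries were analysed separately. Cell filters, groups and the member rule are given with the report. Members, gene lists and comparisons were chosen with earlier results of these data known. UMIs were summed over cells and scaled to CPM, with exact Poisson intervals for levels, exact conditional intervals for ratios and exact binomial intervals for shares (95%; scipy 1.17.1). With 1 library per stage and cells that are not replicates, no test was made. PCR duplicates are collapsed by UMI, and intervals cover counting error only. The procedure was tested on simulated data with known changes. Genes named in the text are the markers, the 15 highest and 10 lowest by the smallest log2 ratio over 4 comparisons (rule, mitochondrial and sex-linked genes left out), per list up to 4 genes of the highest CPM and any past 2-fold at both stages, and the 6 largest stage ratios each way. *Nrg1*, whose symbol has 2 entries, was left out of its list. Doublet scores came from Scrublet in scanpy 1.11.5 and removed no cell in the values reported. Positions are from GENCODE M39. Strand and intron settings of the counting are not given in the sources used here. There were 17 alternative settings. Some genes that the naming rule selects are not reported here.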

Additional observations from a re-analysis of the deposited data

Results flagged for a closer look

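*Prss56* was also found in cells that the member rule does not take, with neither *Sox10* nor *Pou4f1*. It had a UMI in 8 of 110 such cells at E11.5 (7.27%, 3.19–13.8) and in 99 of 665 at E12.5 (14.9%, 12.3–17.8), above the 0.962% (0.117–3.43) and 2.0% (1.32–2.90) of cells with *Pou4f1* and without *Sox10*. Median depths were 6848.5 and 5262 UMIs in these cells, against 11551 and 6469. At E12.5, 4 of them had 10 or more *Prss56* UMIs and the highest had 21, and at E11.5 the highest had 3. No identity was assigned to these cells, and how many of them missed *Sox10* by depth was not tested.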

How the results depend on the processing

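Of 120 values for the main results under the alternatives, 88 stayed within the spread that counts as unchanged. With *Sox8* and *Pou4f1* removed from the reference, 118 genes at E11.5 and 149 at E12.5 were 2-fold lower, the marker medians were 0.64 and 0.44, and the log2 ratio of *Npr3* at E12.5 reversed to -0.0745. With 2 *Sox10* UMIs required, 148 and 192 genes were lower and that of *Npr3* at E12.5 reversed to -0.0335. Requiring 2 *Prss56* UMIs left 49 and 214 members. At least 5000 UMIs left 209 members at E12.5, with 48.3% cycling. An expected count of 20 gave 56 and 133 genes higher and 152 and 248 lower, and no filter 288 and 433 higher. A fold of 1.5 gave 438 and 734 higher and 459 and 576 lower, and a fold of 3 gave 14 and 57 higher and 131 and 215 lower. Without thinning, *Egr2* was found in 36.7% and 29.5% of members and cycling in 88.8% and 49.9%, and thinned to 1000 UMIs in 1.02% and 6.49% and in 29.6% and 18.9%. The 15 highest and 10 lowest genes kept their direction in all 330 and 183 values from 11 settings. They were chosen by their ratios in these same cells, so this was largely set by that choice. No paired analysis was possible because each stage has 1 library. Members with 1 *Prss56* UMI, and genes with few UMIs in 98 cells at E11.5, are the limits of depth, and no value here carries an error between embryos or litters.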

Other observations

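Some further gene groups were compared between members and reference. Of the semaphorin list, 1 of 11 genes was past 2-fold at E11.5, *Nrp1*, which was lower, and 3 of 20 at E12.5, where *Sema5b* was higher and *Plxna4* and *Nrp1* lower. Over all genes, 1.2% were higher and 2.83% lower at E11.5, and 1.99% and 3.49% at E12.5. *Sema5b*, *Plxna4* and, below, *Map7d2* were chosen after their values were seen. *Sema6d* had ratios of 1.19 (0.874–1.61) and 1.60 (1.38–1.85). Of the endothelin list, 0 of 3 compared genes were past 2-fold. *Ednrb*, a receptor of migrating neural crest and glia, had 322 and 587 CPM in members, with ratios of 0.926 (0.831–1.03) and 0.787 (0.740–0.836). Of the BMP and TGF-beta list, *Tgfb2*, a ligand gene, was 2-fold lower at both stages, at 0.345 (0.184–0.597) and 0.339 (0.203–0.537), with 0.542 (0.277–0.998) beside the gated reference at E11.5, and no gene was 2-fold higher. *Id3*, a BMP target, had 948 and 909 CPM in members, with ratios of 1.36 (1.27–1.45) and 1.13 (1.07–1.18).

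*Map7d2* was 2-fold lower at E11.5, with a ratio of 0.333 and 4 UMIs in members, and 2-fold higher at E12.5, with 2.69 and 26 UMIs. It was the one gene past 2-fold in opposite directions at the stages, and the difference was not tested. *Prss56* was also present in barcodes that the filters removed, in 38 of 591 (6.43%, 4.59–8.72) of the first library and 21 of 199 (10.6%, 6.65–15.7) of the second.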
